A study of Mus musculus with 18 samples.

Results

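Globin and erythroid genes were followed through 18 mouse liver libraries, as 6 genes taken by symbol from the deposited tables of 55385 genes. These were the adult globin genes Hba-a1, Hba-a2, Hbb-bs and Hbb-bt, the heme synthesis gene Alas2, and the red cell membrane gene Slc4a1. How much of each transcript came from red cells was not tested. All 6 were found and all 6 passed the filter on low counts. The libraries were made from polyadenylated liver RNA and came from 6 Dp16-2xIFNRs, 6 Dp16 and 6 wild-type C57BL/6J mice, with 3 males and 3 females per genotype, all aged 17.1 to 18.0 weeks and untreated. Dp16 mice carry a duplication of the part of mouse chromosome 16 that corresponds to human chromosome 21 and serve as a model of trisomy 21. Dp16-2xIFNRs mice carry the same duplication with the dosage of the interferon receptor genes inside it set back to normal, and wild-type mice carry neither change. The duplication spans many genes, so a difference from wild-type cannot be assigned to one of them. The labels do not state litters or whether the livers were perfused, and p-values measure the spread between these libraries.

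Hemoglobin, the oxygen carrier of red blood cells, is built from alpha and beta globin chains that each hold a heme group. In the adult mouse, erythroid cells arise in bone marrow and spleen, while the liver is the main blood-forming organ of the fetus only. Mature red cells have no nucleus, but young ones (reticulocytes) still carry globin messenger RNA, so blood inside an adult liver can add globin transcripts to a liver library. Hba-a1 and Hba-a2 encode alpha globin. Hbb-bs and Hbb-bt encode adult beta globin in strains such as C57BL/6J. Alas2 encodes the erythroid form of 5-aminolevulinate synthase, the first enzyme of heme synthesis, whose partner Alas1 serves other tissues. Slc4a1 encodes band 3, the chloride and bicarbonate exchanger that anchors the red cell membrane to its skeleton.

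None of the 6 genes lies on chromosome 16, so none is inside the duplication. In GENCODE M21 (GRCm38), Hba-a1 (ENSMUSG00000069919.7) spans chr11:32283511-32284465 and Hba-a2 (ENSMUSG00000069917.7) spans chr11:32296489-32297298, both on the plus strand with 3 exons. Hbb-bs (ENSMUSG00000052305.6) spans chr7:103826534-103828096 and Hbb-bt (ENSMUSG00000073940.3) spans chr7:103812524-103813996, both on the minus strand with 3 exons. Slc4a1 (ENSMUSG00000006574.15) spans chr11:102348824-102366203 on the minus strand, with 20 exons in its first listed transcript. Alas2 (ENSMUSG00000025270.13) spans chrX:150547375-150570638 on the plus strand, with 11 exons. It lies wholly within Apex2, a DNA repair gene annotated on the opposite strand at chrX:150519519-150589868. The libraries were strand-specific, but the strand setting of the counting was not given in the sources used here, so reads of Alas2 and Apex2 could have been mixed.

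The paired copies of each globin gene are nearly the same in their coding part, which bears on how far their counts can be told apart. The coding sequences of Hba-a1 and Hba-a2 have 426 bases and differ at 1 of them, and those of Hbb-bs and Hbb-bt have 441 bases and differ at 1. The stretch around that base is shown for each gene, read from the GENCODE M21 transcripts, with the differing base in capitals and positions counted from the first base of the start codon.
Hba-a1 coding bases 351 to 411: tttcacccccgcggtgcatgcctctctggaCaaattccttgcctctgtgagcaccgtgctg
Hba-a2 coding bases 351 to 411: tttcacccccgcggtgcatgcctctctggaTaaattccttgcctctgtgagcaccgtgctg
Hbb-bs coding bases 381 to 441: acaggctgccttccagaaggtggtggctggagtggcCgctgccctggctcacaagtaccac
Hbb-bt coding bases 381 to 441: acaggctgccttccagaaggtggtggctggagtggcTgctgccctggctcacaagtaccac
Of the 405 windows of 150 bases (the read length) in the Hba-a2 transcript, 266 (65.7%) occur unchanged in Hba-a1, against 48.4% of the windows of Hba-a1 that occur in Hba-a2. For the beta genes, 58.7% of the windows of Hbb-bs occur in Hbb-bt and 50.7% of those of Hbb-bt in Hbb-bs. No window of Hba-a1 occurs in Hbb-bs. How the authors' counting treated reads that fit 2 genes was not given in the sources used here, so the split within each pair is uncertain, while the alpha and beta levels are separate.

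The 250 bases before the RefSeq start (GRCm38.p6) are shown for the 5 genes found in the promoter table, because these genes are set side by side in their levels below. Capitals mark 4 kinds of letters searched on both strands: the GATA letters (NGATAN with A or T first and A or G last), the CACCC-type letters CCNCNCCC, the box of CCAAT, and the TATA-type box of ATATAA. Where such matches overlap or touch, as in Alas2 and Hbb-bt, the capitals run together.
Hba-a1 promoter, chr11:32283422-32283671 (plus strand): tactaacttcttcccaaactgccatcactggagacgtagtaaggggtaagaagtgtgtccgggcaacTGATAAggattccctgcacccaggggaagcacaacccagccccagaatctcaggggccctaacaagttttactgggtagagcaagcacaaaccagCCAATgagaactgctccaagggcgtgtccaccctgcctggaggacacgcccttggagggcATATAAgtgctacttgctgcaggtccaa
Hba-a2 promoter, chr11:32296242-32296491 (plus strand): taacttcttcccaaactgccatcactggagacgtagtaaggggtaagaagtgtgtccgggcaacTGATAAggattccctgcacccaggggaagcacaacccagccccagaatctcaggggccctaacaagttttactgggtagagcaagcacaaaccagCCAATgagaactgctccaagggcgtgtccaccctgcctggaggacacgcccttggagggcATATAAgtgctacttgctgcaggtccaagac
Hbb-bs promoter, chr7:103827929-103828178 (minus strand): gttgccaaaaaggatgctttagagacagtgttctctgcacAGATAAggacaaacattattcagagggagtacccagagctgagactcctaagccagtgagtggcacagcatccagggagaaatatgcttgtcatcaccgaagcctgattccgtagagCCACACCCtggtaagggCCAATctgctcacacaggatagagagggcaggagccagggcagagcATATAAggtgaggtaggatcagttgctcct
Hbb-bt promoter, chr7:103813924-103814173 (minus strand): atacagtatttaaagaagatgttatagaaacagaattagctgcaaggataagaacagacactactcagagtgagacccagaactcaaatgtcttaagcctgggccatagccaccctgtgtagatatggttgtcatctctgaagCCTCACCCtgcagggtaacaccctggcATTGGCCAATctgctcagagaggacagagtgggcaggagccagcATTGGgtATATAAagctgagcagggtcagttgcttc
Alas2 promoter, chrX:150547167-150547416 (plus strand): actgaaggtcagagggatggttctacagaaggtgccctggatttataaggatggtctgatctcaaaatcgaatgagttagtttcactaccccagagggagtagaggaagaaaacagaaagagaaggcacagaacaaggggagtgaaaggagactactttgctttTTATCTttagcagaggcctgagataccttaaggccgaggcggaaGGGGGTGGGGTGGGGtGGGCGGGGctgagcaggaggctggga
Among 32851 promoters of the same length, the GATA letters occur in 26.5%, the CACCC-type letters in 45.9%, CCAAT in 33.8% and the TATA-type letters in 9.1%. All 4 globin promoters hold CCAAT and a TATA-type match that lies 23 to 31 bases before the start, and 3 of the 4 hold a GATA match. Alas2 holds a GATA match 81 to 86 bases before its start and 4 overlapping or neighbouring CACCC-type matches, and no CCAAT. The Hba-a1 and Hba-a2 windows, shifted by 3 bases, are identical over 247 bases. The Hbb-bs and Hbb-bt windows match at 51.0% of 249 positions compared without gaps. A match here is a run of letters and not a measured binding site.

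Total counts ran from 38236222 to 59923315 per library. The mean levels of the receptor genes Ifnar1, Ifnar2, Ifngr2 and Il10rb were highest in Dp16 livers, as the labels give. Ifnar1, which with Ifnar2 forms the receptor of type I interferons, averaged 23.1 ± 3.15 CPM (counts over the TMM-adjusted library total, per 1e+06) in Dp16-2xIFNRs livers, 33.6 ± 7.05 in Dp16 livers and 22.3 ± 2.32 in wild-type livers (SD, n = 6 each). No receptor gene passed between genotypes (edgeR, adjusted p from 0.246 to 0.999). Ifngr2 overlapped, at 26.8 to 51.2 CPM in Dp16 and 20.4 to 40.0 in wild-type livers. Hepatocyte genes dominated every library, with the summed level of 10 hepatocyte markers between 106000 and 182000 CPM. Dp16 libraries 4 and 5 stood apart from the others, with TMM factors of 0.803 and 1.34, and values are given without them where they matter.

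Globin transcripts were a trace of each liver library. The 4 genes together took 0.0106% ± 0.00382 of all counts in Dp16-2xIFNRs livers, 0.00761% ± 0.00749 in Dp16 livers and 0.00324% ± 0.00159 in wild-type livers (SD, n = 6 each). The highest share was 0.0213% in Dp16 library 4 (95% Wilson interval 0.0208 to 0.0217) and the lowest was 0.000734% in wild-type library 1 (0.000661 to 0.000816). These intervals cover counting error only and are far narrower than the spread between mice. Per gene length, Hbb-bs was the most abundant globin transcript, at a mean of 95.1 RPKM (counts scaled to gene length and library total) in Dp16-2xIFNRs livers, 70.4 in Dp16 livers and 33.7 in wild-type livers. Hba-a2 followed at 28.5, 19.5 and 6.8 RPKM in the same genotypes, Hba-a1 at 22.7, 17.3 and 5.62, and Hbb-bt at 20.4, 12.8 and 5.05. Within libraries, Hbb-bs was above the other 3 genes in all 18, Hba-a2 was above Hba-a1 in 16 of 18 and above Hbb-bt in 17 of 18, and Hba-a1 was above Hbb-bt in 13 of 18.

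The alpha globin genes separated most libraries of both Dp16 genotypes from wild-type livers. Hba-a1 ran from 10.1 to 26.7 CPM with a median of 14.2 in Dp16-2xIFNRs livers, from 2.17 to 34.2 with a median of 8.3 in Dp16 livers, and from 1.81 to 6.66 with a median of 3.35 in wild-type livers. Every Dp16-2xIFNRs library was above every wild-type library, and 5 of 6 Dp16 libraries were too. The exception was Dp16 library 5, at 2.17 CPM.

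Hba-a2 ran from 8.95 to 25.9 CPM with a median of 14.1 in Dp16-2xIFNRs livers, from 1.19 to 30.1 with a median of 7.08 in Dp16 livers, and from 1.36 to 5.43 with a median of 3.92 in wild-type livers. The same separation held: all 6 Dp16-2xIFNRs libraries and 5 of 6 Dp16 libraries exceeded the highest wild-type library. In bulk liver RNA, more cells that hold globin transcripts and more transcript per cell cannot be told apart.

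The beta globin genes separated Dp16-2xIFNRs from wild-type livers, while Dp16 livers spread across both. Hbb-bs ran from 38.4 to 93.7 CPM with a median of 61.3 in Dp16-2xIFNRs livers, from 3.36 to 165 with a median of 24.2 in Dp16 livers, and from 3.8 to 35 with a median of 24.9 in wild-type livers. The Dp16-2xIFNRs and wild-type groups did not overlap, while 2 of 6 Dp16 libraries exceeded the highest wild-type library and the Dp16 and wild-type medians were close. Hbb-bt ran from 9.56 to 25.7 CPM with a median of 12.4 in Dp16-2xIFNRs livers, from 1.06 to 36.1 with a median of 3.9 in Dp16 livers, and from 0.144 to 5.63 with a median of 4.27 in wild-type livers. Here too the Dp16-2xIFNRs and wild-type groups did not overlap, and 2 of 6 Dp16 libraries exceeded every wild-type library. Groups with no overlap and every Dp16-2xIFNRs library higher were found for 0.48% of the 15208 genes tested.

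**Figure D1:**
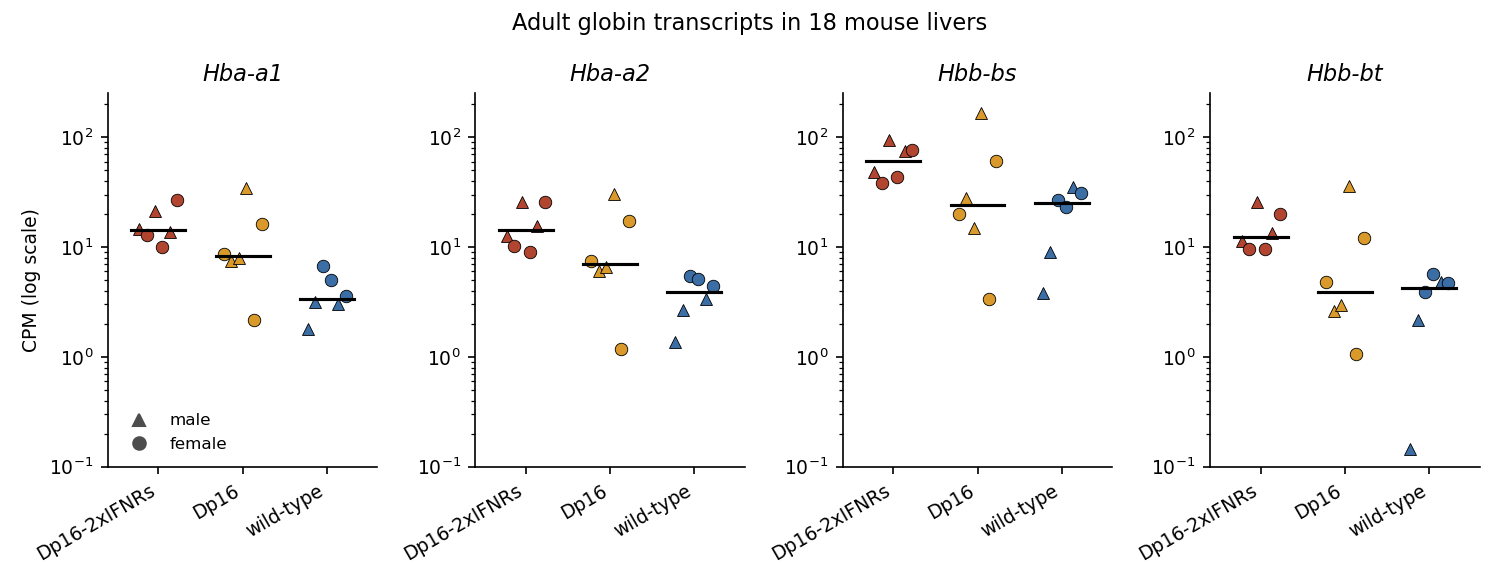
Level of the 4 adult globin genes in each liver library, in CPM on a log axis, by genotype; triangles are males, circles are females and black bars are group medians. For each gene, the 6 Dp16-2xIFNRs libraries lie above all 6 wild-type libraries, and the Dp16 libraries spread across both, from 3.36 to 165 CPM for Hbb-bs.

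Dp16-2xIFNRs against wild-type livers asks what accompanies the duplication when receptor dosage is normal. In the edgeR quasi-likelihood test over all genes, 0 of 6 members passed an adjusted p of 0.05, a threshold passed by 0.0986% of genes tested. At an unadjusted p under 0.05 there were 5 of 6, all higher, against 3.43% of all genes that were higher at that level. These were the globin genes, which varied together over the libraries, and Slc4a1, so they are not separate results. Slc4a1 had 0 counts in 4 of 6 wild-type libraries. With Dp16 and wild-type livers alone it did not pass the low count filter. It was thus tested only with the Dp16-2xIFNRs libraries included, the group where it is highest. Its p-values in this comparison, by any fit, are therefore not added support. Hba-a1 was 4.28-fold higher (log2 2.1, SE 0.484, edgeR unadjusted p 0.000354 and adjusted p = 0.119). Hba-a2 was 4.41-fold higher (log2 2.14, SE 0.55, edgeR unadjusted p 0.000971 and adjusted p = 0.183).

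The beta genes had smaller or less certain differences. Hbb-bt was 4.09-fold higher (log2 2.03, SE 0.738, adjusted p = 0.471) and Hbb-bs 2.78-fold higher (log2 1.48, SE 0.659, adjusted p = 0.554). The call for the alpha genes depended on the fit. DESeq2 called Hba-a1 (adjusted p = 0.00179), Hba-a2 (0.00573) and Slc4a1 (0.031), while limma-voom called none. With only the 2 genotypes in the edgeR fit, Hba-a1 (adjusted p = 0.00691) and Hba-a2 (0.0125) passed, and without Dp16 libraries 4 and 5 they passed at 0.00236 and 0.00752. Without Dp16 library 4 alone both passed (0.0232 and 0.0474), and without Dp16 library 5 alone Hba-a1 did (0.0305).

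Dp16 against wild-type livers asks what accompanies the whole duplication, receptors included. By edgeR 0 of 6 members passed, against 0.0395% of genes tested, and 2 of 6 had an unadjusted p under 0.05, against 4.87% of genes. Those 2 were Hba-a1 and Hba-a2, near-identical copies whose values are not separate. Hba-a1 was 3.29-fold higher (log2 1.72, SE 0.488, adjusted p = 0.397) and Hba-a2 3.05-fold higher (log2 1.61, SE 0.548, adjusted p = 0.65). Hbb-bt differed by log2 1.4 (SE 0.745, adjusted p = 0.999) and Hbb-bs by log2 1.07 (SE 0.67, adjusted p = 0.999). DESeq2 called Hba-a1 alone (adjusted p = 0.0348).

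Dp16 libraries 4 and 5 moved these values in opposite directions. Without Dp16 library 4, the log2 differences were 1.13 for Hba-a1, 1.04 for Hba-a2, 0.237 for Hbb-bs and 0.351 for Hbb-bt. Without Dp16 library 5 they were 2.0, 1.91, 1.39 and 1.72 in the same order. Without both they were 1.39, 1.33, 0.52 and 0.609, with adjusted p of 0.162 for Hba-a1 and 0.359 for Hba-a2 (edgeR). Dp16 library 4 is from a male, and the difference in males alone was log2 2.63 for Hba-a1, against 0.826 in females alone. The test of that difference between the sexes gave log2 1.8 (SE 0.889, adjusted p = 0.582, edgeR), and for the other 3 globin genes it lay between 1.74 and 2.22 with the same adjusted p. Within each genotype, the libraries highest in summed globin CPM (Dp16-2xIFNRs 3 and 6, Dp16 4 and 6, wild-type 5 and 6) shared the first digits of their description number. Dp16 5, the lowest of its genotype, had the same digits, and the labels do not explain them. Wild-type 5 and 6 were barely set apart, at 46.3 and 43.7 CPM against 42.6 in wild-type 3. They ranked only 9 and 11 among all 18 libraries. With these digits as a term, the Dp16 against wild-type values were 1.47 for Hba-a1, 1.31 for Hba-a2, 0.736 for Hbb-bs and 0.926 for Hbb-bt. For Dp16-2xIFNRs against wild-type, Hba-a1 was then at 1.98 and Hba-a2 at 2.0.

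Dp16-2xIFNRs against Dp16 livers asks what accompanies the receptor dosage. All 4 globin genes were nominally higher in Dp16-2xIFNRs livers, by log2 0.38 for Hba-a1 (95% interval -0.53 to 1.29), 0.53 for Hba-a2 (-0.49 to 1.55), 0.41 for Hbb-bs (-0.85 to 1.67) and 0.63 for Hbb-bt (-0.75 to 2.01). No member passed (0.0% of genes tested did), the globin adjusted p-values lay between 0.698 and 0.805, and every group pair overlapped. The intervals include both no difference and a difference of more than 2-fold. Without Dp16 library 4 the same differences were log2 1.02, 1.18, 1.35 and 1.84, so this comparison depends on that library as well. Leaving out each library in turn moved Hba-a1 between 0.126 and 1.02 and Hbb-bt between 0.361 and 1.84. The 3 genotype comparisons share their groups, so they are not separate evidence.

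**Figure D2:**
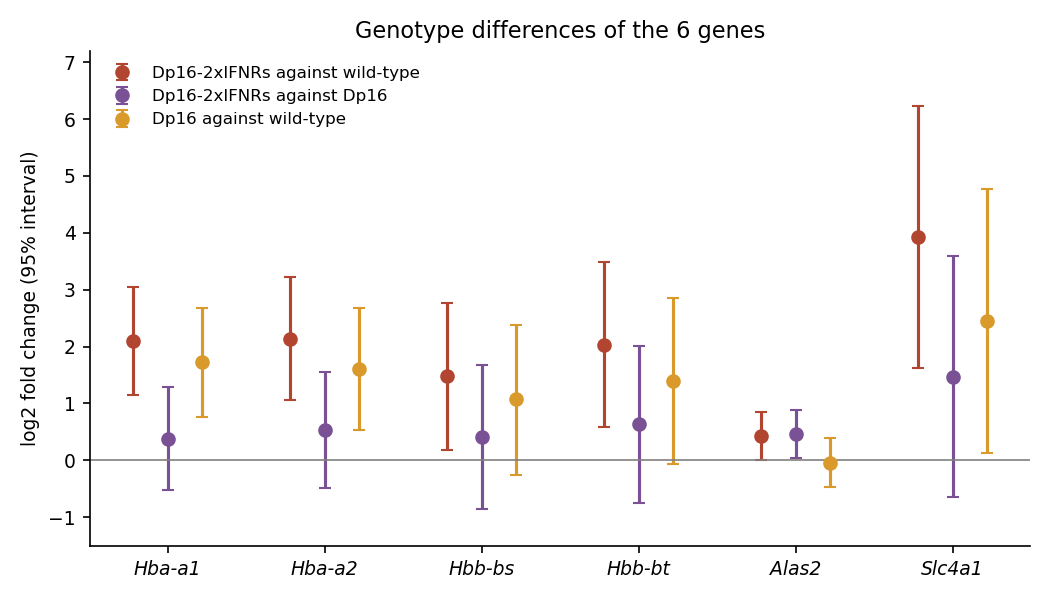
Log2 fold change of the 6 genes in the 3 genotype comparisons, from the edgeR fit over 18 libraries; points are estimates and bars are 95% intervals. The globin estimates against wild-type lie above 0, from 1.07 for Hbb-bs in Dp16 livers to 2.14 for Hba-a2 in Dp16-2xIFNRs livers, Alas2 lies near 0, and Slc4a1 has the widest bars.

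Library composition moved with the globin level in part. The globin transcripts are short, at 554 to 703 bases. Over the 1564 tested genes of up to 1000 bases, the median log2 deviation of a library from the mean of all libraries was 0.929 in Dp16 library 4, the highest of the 18 and also the library with the most globin (265 summed CPM). It was -0.931 in Dp16 library 5, the lowest of the 18 and second lowest in globin (7.77 summed CPM). It lay between 0.098 and 0.658 in Dp16-2xIFNRs livers and between -0.512 and 0.489 in wild-type livers. The match was not full: wild-type libraries 6 and 5 ranked 3 and 4 of the 18 in this deviation, but 11 and 9 in summed globin. With gene length fitted in each library, Hba-a1 was higher by log2 1.83 in Dp16-2xIFNRs than in wild-type livers (adjusted p = 0.0377, edgeR) and Hba-a2 by 1.87 (adjusted p = 0.0834). In Dp16 against wild-type livers the values were then 1.59 and 1.49, so the differences were of similar size with and without that term.

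**Figure D3:**
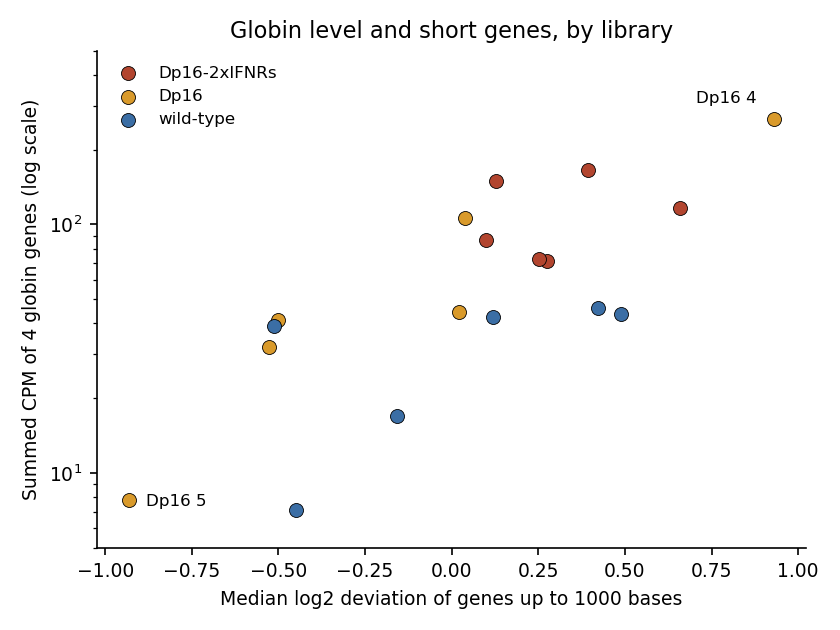
Summed CPM of the 4 globin genes in each library (log axis) against the median log2 deviation of genes of up to 1000 bases from the mean of all libraries; colours give the genotype. Dp16 library 4 is at the top right (0.929, 265 CPM), Dp16 library 5 at the lower left (-0.931, 7.77 CPM), and the Dp16-2xIFNRs libraries lie above wild-type libraries of like deviation.

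The 4 globin genes varied together from mouse to mouse. Over 18 libraries, the 6 pairs had Pearson's r of log2 CPM between 0.874 and 0.981 and Spearman's rho between 0.868 and 0.994 (permutation test, largest adjusted p = 2.5e-05 over 15 pairs, with raw p = 1e-05 the smallest that 100000 resamples can give). With the genotype means taken off, r lay between 0.84 and 0.977, and without the 2 libraries farthest from the median between 0.804 and 0.973. Within genotypes of 6 libraries each, r lay between 0.749 and 0.97 in Dp16-2xIFNRs, between 0.951 and 0.994 in Dp16 and between 0.695 and 0.929 in wild-type livers. Spearman's rho within genotypes lay between 0.829 and 1.0 in Dp16-2xIFNRs, between 0.829 and 1.0 in Dp16 and between 0.257 and 0.943 in wild-type livers. The largest adjusted p for r was 0.22, 0.0208 and 0.195 in these genotypes, and for rho 0.146, 0.146 and 0.76 (exact permutation tests), so not every pair passed within a genotype. Within each pair of near-identical copies, shared reads and shared libraries are common to both values.

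The proportions among the globin genes were compared as ratios of RPKM by an exact permutation test (two-sided, every arrangement of the 12 libraries), with adjustment over 18 tests. The alpha to beta ratio had a median of 0.442 (range 0.348 to 0.561) in Dp16-2xIFNRs livers, 0.571 (0.33 to 0.839) in Dp16 livers and 0.385 (0.168 to 0.806) in wild-type livers. The groups overlapped and the smallest p of its 3 comparisons was 0.162. The Hbb-bs to Hbb-bt ratio had a median of 4.61 in Dp16-2xIFNRs livers, 5.34 in Dp16 livers and 7.56 in wild-type livers. Its log2 difference of -0.76 between Dp16-2xIFNRs and wild-type livers had an exact p of 0.0325 and an adjusted p of 0.506, and wild-type library 1, with a ratio of 27.7, lay far from the others. Without that library the difference was -0.405. The Hba-a1 to Hba-a2 ratio had a median of 0.855 in Dp16-2xIFNRs livers, 0.931 in Dp16 livers and 0.854 in wild-type livers, with exact p-values between 0.169 and 0.898. None of the 18 ratio tests passed after adjustment.

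Alas2 separated the libraries by sex. In males it measured 176, 157 and 189 CPM in Dp16-2xIFNRs livers, 164, 122 and 147 in Dp16 livers, and 142, 170 and 142 in wild-type livers. In females it measured 17.6, 18.8 and 19.0 CPM in Dp16-2xIFNRs livers, 13.4, 5.42 and 16.6 in Dp16 livers, and 7.63, 12.3 and 15.5 in wild-type livers. Every male library was above every female library, in each genotype and across all 18, which held for 0.986% of genes tested.

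Alas2 rose 11.4-fold in males against females (157 ± 20.5 CPM in 9 males and 14 ± 4.84 CPM in 9 females, SD; log2 3.51, SE 0.194, adjusted p = 2.31e-10, edgeR). By the same test 6.56% of genes differed between the sexes, and Alas2 ranked 79 by fold among 518 genes higher in males. The difference passed within each genotype, at log2 3.24 (SE 0.338) in Dp16-2xIFNRs, 3.61 (SE 0.344) in Dp16 and 3.68 (SE 0.345) in wild-type livers, where 1.43%, 2.18% and 1.49% of genes passed. The tests of whether it differed between genotypes gave log2 -0.44 (SE 0.44, adjusted p = 1.0) for Dp16-2xIFNRs against wild-type and -0.07 (SE 0.44, adjusted p = 0.96) for Dp16 against wild-type. No globin gene passed between the sexes: the log2 differences were -0.01 for Hba-a1, 0.01 for Hba-a2, 0.33 for Hbb-bs and 0.22 for Hbb-bt, with adjusted p-values from 0.806 to 0.994.

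Between genotypes Alas2 differed little. It was log2 0.43 higher in Dp16-2xIFNRs than in wild-type livers (95% interval 0.0 to 0.85, adjusted p = 0.6, edgeR) and 0.46 higher than in Dp16 livers (0.04 to 0.88, adjusted p = 0.532), where its unadjusted p was 0.0464 and 9.32% of all genes were under 0.05. Dp16 livers differed from wild-type livers by log2 -0.04 (-0.46 to 0.39, adjusted p = 0.999). The 3 Dp16-2xIFNRs females, at 17.6 to 19.0 CPM, lay above all other females.

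Because Alas2 falls into separate clusters by sex, its relation to the globin genes was taken within each sex. In the 9 females, r with the 4 globin genes lay between 0.735 and 0.897 and rho between 0.8 and 0.817 (permutation test, adjusted p for r from 0.00152 to 0.0286 over 5 pairs). In the 9 males, r lay between 0.234 and 0.306 and rho between 0.25 and 0.333 (permutation test, adjusted p for r of 0.545). The female values include the genotype difference, and Dp16 library 5, lowest of all females in Alas2 and in globin, is among them. With genotype means taken off, r in females lay between 0.614 and 0.836 and none passed (exact permutation within genotype, 216 arrangements, adjusted p from 0.13 to 0.329). Without Dp16 library 5, r lay between 0.515 and 0.753 (exact permutation, adjusted p from 0.0933 to 0.198), and without the 2 libraries farthest from the median between 0.415 and 0.768 (exact permutation, adjusted p from 0.0921 to 0.366), so the relation in females rests on those libraries and on genotype. The difference between the sexes in this relation was not tested. Per globin transcript the sexes lay far apart: the ratio of Alas2 to summed globin RPKM had a median of 0.953 in males and 0.0834 in females.

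**Figure D4:**
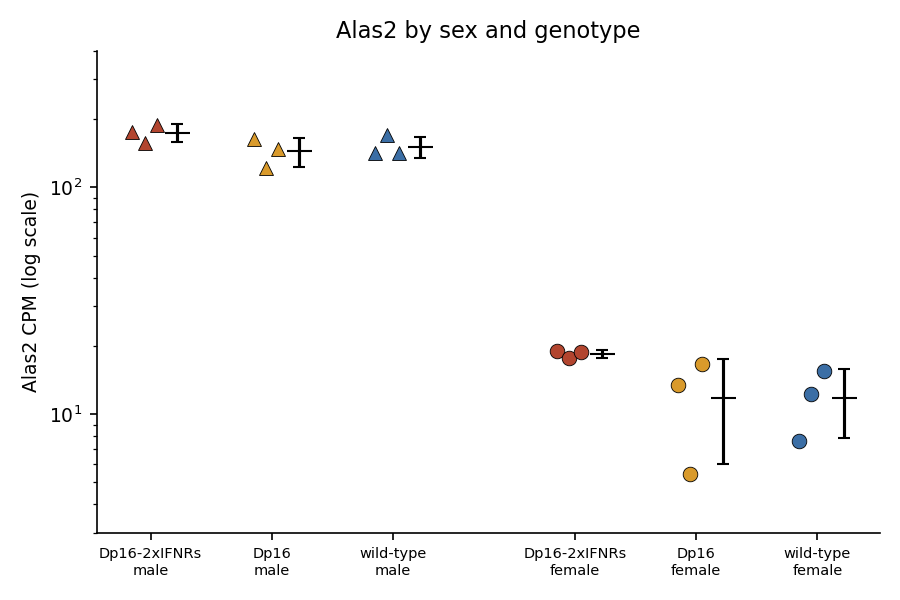
Alas2 level in CPM on a log axis for each library, by sex and genotype; horizontal marks beside the points are means and bars are 1 SD (n = 3). All male libraries lie between 122 and 189 CPM and all female libraries between 5.42 and 19 CPM.

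Slc4a1 was close to the limit of detection. Its counts in libraries 1 to 6 were 20, 8, 23, 16, 7 and 211 in Dp16-2xIFNRs livers, 18, 2, 0, 20, 8 and 28 in Dp16 livers, and 0, 0, 16, 8, 0 and 0 in wild-type livers. A count of 0 allows up to 3 counts, so the 4 wild-type libraries at 0 cannot be told from those with 2 or 3. All 6 Dp16-2xIFNRs libraries held reads of the gene, against 5 of 6 Dp16 and 2 of 6 wild-type libraries.

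One Dp16-2xIFNRs library held most of the Slc4a1 reads of its group: 211 of 285 came from library 6, a female, which had 4.26 CPM against 0.174 to 0.502 in the other 5. Its globin level, 150 summed CPM, was within the range of its group. The log2 difference between Dp16-2xIFNRs and wild-type livers was 3.93 (SE 1.17, adjusted p = 0.3, edgeR), and 2.9 (adjusted p = 0.654) without that library. Between Dp16 and wild-type livers it was 2.45 (SE 1.18, adjusted p = 0.999), and 1.28 without Dp16 library 4. Between Dp16-2xIFNRs and Dp16 livers it was 1.47 (SE 1.08, adjusted p = 0.624), with 0.684 without Dp16-2xIFNRs library 6 and 3.05 (adjusted p = 0.0856) without Dp16 library 4. Slc4a1 varied with the globin genes over the 18 libraries, with r between 0.619 and 0.796 and rho between 0.741 and 0.869 (permutation test, largest adjusted p = 0.00888). With genotype means taken off, r lay between 0.446 and 0.64, and the adjusted p for r was then 0.0876 for Hbb-bs, 0.0513 for Hbb-bt, 0.0279 for Hba-a2 and 0.00763 for Hba-a1 (permutation test). Without the 2 libraries farthest from the median of the globin gene, r lay between 0.658 and 0.802. Those libraries were chosen by globin and not by Slc4a1, and r without Dp16-2xIFNRs library 6 is not given here. Within genotypes of 6 libraries, r lay between 0.397 and 0.758 in Dp16-2xIFNRs, between 0.57 and 0.734 in Dp16 and between 0.346 and 0.857 in wild-type livers, and none passed after adjustment. With counts this low, the fitted folds depend on the few reads of the wild-type group, 24 in all.

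**Figure D5:**
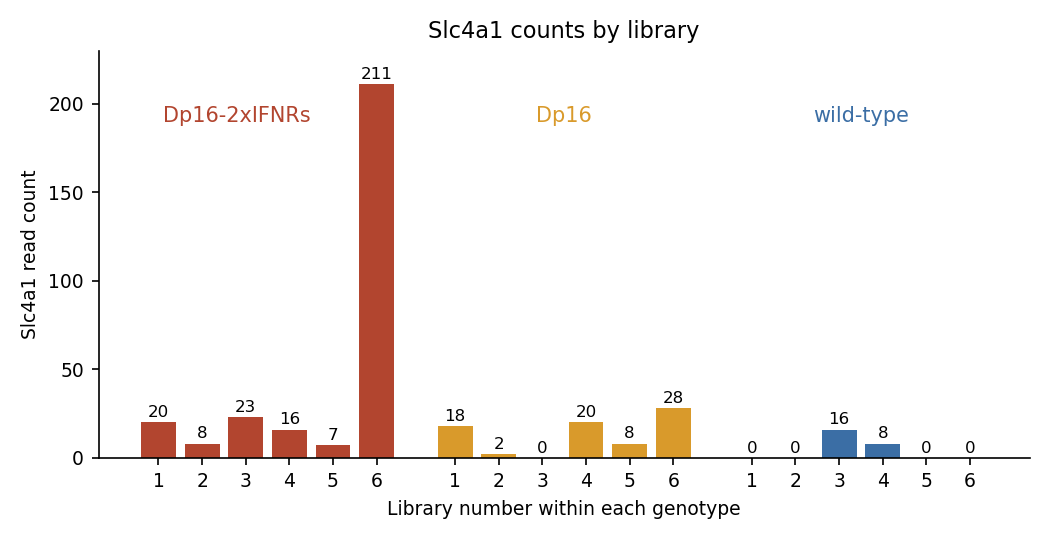
Slc4a1 read counts in each library, by genotype and library number; the number over each bar is the count. Dp16-2xIFNRs library 6 has 211 reads, the other 17 libraries have 0 to 28, and 4 of 6 wild-type libraries have 0.

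Other genes of the red cell lineage were read from lists made with earlier results of these data known. Embryonic and theta-type globin genes had few or no counts: Hba-x, Hbb-y, Hbb-bh2 and Hbq1a had 0 counts in all 18 libraries, Hbb-bh1 had 2 counts and Hbq1b 7 counts over all of them. Of 20 red cell membrane and skeleton genes, 9 were tested. Epb42, a protein of the red cell membrane skeleton, had 16 counts over 2 libraries, and Kel none. Of the erythroid regulators, Gata1, the central transcription factor of red cell development, had 30 counts over 3 libraries, none of them wild-type. Gfi1b had none and Hemgn had 4. Klf1, the activator of adult beta globin, was counted in all 18 libraries, at 0.394 to 6.8 CPM.

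None of the tested genes of these lists passed in a genotype comparison. In Dp16-2xIFNRs against wild-type livers, 0 of 9 tested membrane genes passed, with a median log2 difference of -0.28, beside -0.025 over all genes tested. The 9 tested regulators had a median of -0.07 with 0 passing, and the 9 heme synthesis genes a median of 0.07 with 0 passing. In Dp16 against wild-type livers the medians were -0.13, -0.17 and -0.16, beside 0.01 over all genes, again with 0 passing. The tested globin genes, 4 of the list of 10, had medians of 2.06 in Dp16-2xIFNRs and 1.51 in Dp16 livers against wild-type. Kit, the stem cell factor receptor, measured 1.57 ± 0.243 CPM in Dp16-2xIFNRs and 3.25 ± 1.08 in wild-type livers (SD, n = 6 each; log2 -1.0, adjusted p = 0.487, edgeR).

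In the list of 20 genes that handle heme and iron, 19 were tested and 0 passed in any genotype comparison. Hamp, which encodes the iron hormone hepcidin, measured 2510 ± 550 CPM in Dp16-2xIFNRs, 1670 ± 576 in Dp16 and 1460 ± 580 in wild-type livers (SD, n = 6 each; log2 0.78 for Dp16-2xIFNRs against wild-type, SE 0.272, adjusted p = 0.43, edgeR). Cpox, a later enzyme of heme synthesis, measured 68.8 ± 21.7 CPM in Dp16-2xIFNRs and 94.9 ± 25.2 in wild-type livers (adjusted p = 0.574, edgeR). Epo, the hormone that drives red cell production, had 0 counts in every library.

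Between the sexes some of these genes passed the edgeR test in both directions, beside 3.41% of all genes tested that were called higher and 3.16% called lower in males. In males against females, 1 of 9 tested heme synthesis genes was called higher and 0 lower, 1 of 9 membrane genes higher and 2 lower, 1 of 9 regulators higher and 0 lower, 1 of 22 genes of red cell iron, enzymes and maturation higher and 3 lower, and 2 of 19 genes of heme and iron handling higher and 1 lower. Hamp2, a second hepcidin gene, fell in males, with 19.7 ± 8.22 CPM in males and 1080 ± 498 in females (SD, n = 9 each; log2 -5.81, adjusted p = 8.61e-10). Tfrc, the transferrin receptor that brings iron into cells, rose in males, with 8.17 ± 4.58 CPM in males and 2.87 ± 1.37 in females (log2 1.54, adjusted p = 0.00741). Abcb10, a mitochondrial transporter needed for heme synthesis, rose in males by log2 0.87 (adjusted p = 0.000263), and Slc11a2, an iron importer, by 0.81 (adjusted p = 0.00506). Gypc, a membrane glycoprotein, fell in males by 1.33 on the log2 scale (adjusted p = 0.000277), as did Aqp1, a water channel, by 0.39 (adjusted p = 0.0264). In the list of red cell iron, enzymes and maturation, Car2, a carbonic anhydrase, fell in males by 0.81, Tmcc2 by 0.85 and Tent5c by 0.89 on the log2 scale (adjusted p from 0.00255 to 0.0217, edgeR). Of the 9 heme synthesis genes, Alas2 was the one that passed.

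Markers of other blood cells also had positive differences from wild-type livers. Of 11 tested neutrophil markers, 11 were higher in Dp16-2xIFNRs than in wild-type livers, with a median log2 difference of 1.46, 5 at an unadjusted p under 0.05 and 0 called. Over all genes tested, 47.4% were higher in Dp16-2xIFNRs livers, 3.43% were higher at that level and the median was -0.025. S100a8, a calcium-binding protein of neutrophils, measured 4.15 ± 1.85 CPM in Dp16-2xIFNRs, 3.03 ± 1.75 in Dp16 and 1.05 ± 0.634 in wild-type livers (SD, n = 6 each; adjusted p = 0.119 for Dp16-2xIFNRs against wild-type, edgeR). The summed level of the 14 neutrophil markers ran from 7.79 to 22.9 CPM in Dp16-2xIFNRs, from 8.44 to 23.2 in Dp16 and from 3.24 to 10.7 in wild-type livers. Of 14 T and B cell markers, 13 were higher in Dp16-2xIFNRs than in wild-type livers, with a median of 0.94 and summed levels of 27.3 to 143 CPM against 19.4 to 61.8. The platelet markers had a median of 0.47, with summed levels of 13.2 to 19.8 CPM in Dp16-2xIFNRs and 10.0 to 19.1 in wild-type livers, and the hepatocyte markers had a median of 0.17. No marker of these 4 lists passed in this comparison. The part of blood cell content in the globin difference was not tested.

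Kupffer cells are the macrophages of the liver that take up old red cells. Of 12 Kupffer cell markers, 1 passed in Dp16-2xIFNRs against wild-type livers: Fcna, a ficolin, fell to 21.4 ± 4.26 CPM in Dp16-2xIFNRs, against 38.4 ± 7.99 in wild-type livers (SD, n = 6 each; log2 -0.84, SE 0.127, adjusted p = 0.00803, edgeR). In Dp16 livers Fcna measured 23.7 ± 5.01 CPM (log2 -0.69 against wild-type, adjusted p = 0.0589, edgeR). Of the 12 markers, 4 were higher and 8 lower in Dp16-2xIFNRs than in wild-type livers, with a median log2 difference of -0.14. Their summed level ran from 466 to 588 CPM in Dp16-2xIFNRs and from 436 to 891 in wild-type livers.

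The genes most like the 4 globin genes over the 18 libraries were ranked by Pearson's r of log2 CPM with the globin mean, as a description. Hcar2 came first at r = 0.912 (0.86 with genotype means taken off, 0.902 without Dp16 library 4), followed by Hmgn1 at 0.899, Morn2 at 0.893, Cd52 at 0.871, Cryzl1 and Tmsb10 at 0.869, Plekho1 and Sod1 at 0.866, Jchain at 0.863 and Fcer1g at 0.859. Of these, Hmgn1, Cryzl1 and Sod1 lie inside the duplication, and Jchain, Cd52 and Fcer1g are genes of immune cells. With genotype means taken off, r in this ranking lay between 0.763 and 0.86. Ranked against the mean of all 6 genes, Hcar2 (0.907), Fkbp1a (0.886) and Morn2 (0.882) led, followed by Hmgn1 (0.878), Ncbp2 (0.878), Cryzl1 (0.868), Psmg1 (0.861), Atp5j (0.858), Smim11 (0.852) and Gm8566 (0.852). Hmgn1, Cryzl1 and Atp5j are among those inside the duplication. Here r with genotype means taken off lay between 0.729 for Smim11 and 0.866 for Fkbp1a. All these values share library depth and composition with the globin values.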

How the data were processed

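Reads of 18 mouse liver libraries were processed by the submitters with HISAT2 2.1.0, SAMtools 1.5 and HTSeq 0.6.1 on GRCm38, per the submitters' processing notes. The authors deposited a table of read counts per gene and a table of RPKM, in which 100.0% of values equalled the counts scaled to length and column total within 0.1%. Library totals were 38236222 to 59923315. Genes were kept with filterByExpr by group (15208 genes), scaled by TMM and tested in R 4.3.3 with edgeR 4.0.16 (quasi-likelihood, robust). The model held genotype and sex for all 18 libraries at once, and p-values were adjusted by Benjamini-Hochberg over all genes. In a simulated Dp16 against wild-type comparison of 14704 genes, 52 of 100 genes changed 2-fold and 90 of 100 changed 4-fold were called, with 4 false calls. Ratios of RPKM were tested by exact permutation with 0.5 counts added to both genes, and correlations used 100000 resamples (SciPy 1.17.1). Alternatives were DESeq2 1.42.0, limma-voom and limma 3.58.1 on log2(RPKM + 0.1) or log2(RPKM + 1), other scalings, filters and covariates, subsets of libraries, and the leaving out of each library. A gene length offset, Alas2 relations within the sexes, the sex tests and the likeness to the 4 globin genes were added after the data were seen. The genes, lists and rules were chosen with earlier results of these data known. Named genes were the 6 members, from each list the called genes or the 2 with the smallest p, and the 10 genes most correlated with the members; genes given only by their detection were chosen after their values were seen. Some genes that the rule names are not reported here. No pair of libraries in a group was a duplicate.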

Additional observations from a re-analysis of the deposited data

Results flagged for a closer look

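Among 39 sets of 6 values (each gene, each ratio and the globin share of counts, within a genotype), 9 had 1 library far from the other 5, by Dixon's 95% critical value for the gap relative to the whole range. For separate sets with a normal spread, chance gives about 1 in 20. These sets were taken without logs and share genes and libraries, so the 9 of 39 cannot be set against that rate. Dp16 library 4 had Hbb-bs at 165 CPM, against 3.36 to 60.7 in the other Dp16 libraries, and Hbb-bt at 36.1 CPM, against 1.06 to 12.0. Dp16-2xIFNRs library 6 had Slc4a1 at 4.26 CPM, against 0.174 to 0.502 in its group, and a ratio of Slc4a1 to summed globin RPKM of 0.00397, against 0.000221 to 0.000829. The Hba-a1 to Hba-a2 ratio was 1.45 in Dp16 library 5, against 0.75 to 0.961. The Hbb-bs to Hbb-bt ratio was 11.9 in Dp16 library 2, against 3.53 to 5.67, and 27.7 in wild-type library 1, against 4.62 to 8.08, where Hbb-bt stood at 0.144 CPM. The Alas2 to Slc4a1 ratio was 2260 in Dp16-2xIFNRs library 5, against 9.8 to 848, and 25700 in Dp16 library 3, against 72.2 to 6420; this library had 0 Slc4a1 counts, so the ratio rests on the 0.5 counts added. What set these libraries apart was not tested.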

How the results depend on the processing

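Counts of genes past the threshold in Dp16 against wild-type livers were 6 in the edgeR fit, 3 with no sex term, 1 with only the compared groups or without Dp16 libraries 4 and 5, 0 in males alone and in females alone, 21 with a gene length offset, 11 with limma-voom and on log2(RPKM + 0.1) and log2(RPKM + 1), 72 with DESeq2, and 1 to 9 when 1 library was left out (9 without Dp16 library 4; 1 without Dp16 library 2 or wild-type library 1 or 6; 2 or 3 without Dp16-2xIFNRs 2, Dp16 5 or 6 or wild-type 2, 4 or 5). In Dp16-2xIFNRs against wild-type livers they were 15, then 7 with no sex term, 23 with the first digits of the description number as a term, 43 with only the compared groups, 64 without Dp16 libraries 4 and 5, 0 in each sex alone, 48 with the length offset, 38 and 27 on the RPKM scales, 127 with DESeq2, and 4 to 48 when 1 library was left out (48 without Dp16 library 4, 24 without Dp16 5, 4 to 9 without any wild-type library or Dp16-2xIFNRs 1, 2, 3, 4 or 6). In Dp16-2xIFNRs against Dp16 livers they were 0, and 7 with DESeq2.

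Among the 6 genes, those past the threshold in Dp16-2xIFNRs against wild-type livers were 0 in the edgeR fit, 2 with only the compared groups or without Dp16 libraries 4 and 5, 1 with the length offset or on log2(RPKM + 0.1), 3 with DESeq2, and 0 to 2 when 1 library was left out. The log2 differences of the calls were, for Hba-a1, 2.16 (compared groups), 2.18 (without Dp16 4 and 5), 1.83 (length offset), 2.05 (RPKM) and 2.11 (DESeq2), and for Hba-a2 2.21, 2.25 and 2.15 in the first, second and last of these fits; Slc4a1 was at 4.2 with DESeq2. Leaving out 1 library moved Hba-a1 between 1.86 and 2.32 and Hba-a2 between 1.9 and 2.29. In Dp16 against wild-type livers, DESeq2 called Hba-a1 (1.74), 1 gene of the 6.

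The direction turned for Alas2 in Dp16 against wild-type livers (0.126 without Dp16 libraries 4 and 5; -0.154 to 0.126 when 1 library was left out, positive without Dp16 3 or 5 or wild-type 2 or 6), for the Hba-a1 to Hba-a2 ratio in Dp16-2xIFNRs against wild-type livers (-0.0987 to 0.048), and for pooled relations of Alas2 (with Hbb-bt -0.034 with group means taken off; without Dp16 libraries 4 and 5, -0.142 with Hba-a1, -0.135 with Hba-a2, -0.149 with Hbb-bs and -0.214 with Hbb-bt). The cause was not tested.

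Replicate numbers did not pair the samples: 18 pairs with the same number had r of -0.449 to 0.342 (median -0.0961). With the replicate block, 5, 21 and 0 genes passed in the 3 comparisons and 0 of the 6 genes, and Hba-a1 was at 2.14 (adjusted p = 0.0792) in Dp16-2xIFNRs against wild-type livers. Depth limits Slc4a1, whose counts per library were mostly under 30.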
